A study of Homo sapiens with 18 samples.

Results

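AML1-ETO peaks that lie away from genes were examined in Kasumi-1 cells. This human line was derived from acute myeloid leukaemia, and its t(8;21) translocation fuses RUNX1 (AML1) to RUNX1T1 (ETO). The peaks were taken from the authors' shared list, which holds intervals called with 2 antibodies in control cells and again after knockdown of the microRNA miR-130a. An interval was kept if it was narrower than 3000 bp and its centre lay outside every RefSeq gene of any type and more than 1 kb from every gene start or end. These rules kept 921 of the 8731 shared intervals, or 10.5% (95% Wilson interval 9.92 to 11.2), which covered 962 kb on 23 chromosomes. A further 36 shared intervals outside genes were 3000 bp or wider and were left out. The peaks were thus chosen by the shared call of both antibodies and conditions, by width and by distance from genes, and none of these is a finding below.

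The cells carried Flag-tagged AML1-ETO, and the 18 CUT&RUN libraries formed 6 groups of 3: control or miR-130a knockdown, each profiled with anti-ETO, anti-Flag or mouse IgG. CUT&RUN tethers a nuclease to antibody-bound chromatin in cells made permeable, and the fragments it cuts free are sequenced. Viable GFP-positive cells were sorted 3 days after transduction, 200000 per condition, with a planned depth near 40 M paired reads of 75 bp per library. The labels do not describe the control transduction further, and a single tagged line was used, so the p-values below carry no information on other lines or clones. The deposited values were intervals, with 1 list per antibody and condition and no score, read number or value per library. Depth and the spread between the 3 libraries are therefore unknown, the IgG libraries were not analysed here, and every test compares sets of peaks, not conditions over replicates. Intervals and p-values cover counting error over peaks only.

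AML1-ETO keeps the DNA-binding Runt domain of RUNX1 and gains most of ETO, a scaffold that recruits NCoR and histone deacetylase complexes and that forms assemblies with haematopoietic factors such as the E proteins. RUNX1 itself acts at promoters and at enhancers, many of which lie between genes and act over long distances. Peaks outside genes are candidates for such distal elements, although an interval alone does not say which gene, if any, an element acts on.

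Because no genome sequence was used here, the sequence of most of these peaks cannot be shown. A peak whose centre is just over 1 kb from a gene can still reach that gene's start, and 7 of the 921 overlapped a RefSeq promoter window of 300 bp (250 bases before to 50 after a gene start). The 3 windows with the most covered bases are printed because they show what DNA the peaks reach at their gene-facing edge. Each runs 5′ to 3′ in the direction of transcription, and capitals mark the bases inside the shared peak. The windows, from RefSeq GRCh38.p14, are chr17:29592882-29593181 (plus strand) for ANKRD13B, chr7:101815757-101816056 (plus strand) for CUX1, a homeodomain transcription factor, and chr19:2475877-2476176 (plus strand) for GADD45B, a stress-response gene.
ANKRD13B: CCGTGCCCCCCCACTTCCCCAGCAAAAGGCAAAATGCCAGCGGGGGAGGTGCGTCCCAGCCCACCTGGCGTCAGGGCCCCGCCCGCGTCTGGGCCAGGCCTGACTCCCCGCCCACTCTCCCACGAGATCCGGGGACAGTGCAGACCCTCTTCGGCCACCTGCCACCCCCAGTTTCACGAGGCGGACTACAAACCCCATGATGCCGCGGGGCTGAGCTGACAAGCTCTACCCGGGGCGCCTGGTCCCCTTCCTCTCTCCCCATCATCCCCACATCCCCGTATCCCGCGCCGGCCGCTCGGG
CUX1: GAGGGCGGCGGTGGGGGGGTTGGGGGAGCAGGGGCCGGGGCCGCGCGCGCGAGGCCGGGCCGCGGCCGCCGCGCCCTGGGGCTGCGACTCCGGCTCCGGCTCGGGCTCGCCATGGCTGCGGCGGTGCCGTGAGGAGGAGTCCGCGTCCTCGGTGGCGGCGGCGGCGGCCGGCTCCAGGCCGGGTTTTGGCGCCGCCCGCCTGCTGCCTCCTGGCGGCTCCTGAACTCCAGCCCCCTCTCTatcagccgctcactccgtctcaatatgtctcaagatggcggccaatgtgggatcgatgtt
GADD45B: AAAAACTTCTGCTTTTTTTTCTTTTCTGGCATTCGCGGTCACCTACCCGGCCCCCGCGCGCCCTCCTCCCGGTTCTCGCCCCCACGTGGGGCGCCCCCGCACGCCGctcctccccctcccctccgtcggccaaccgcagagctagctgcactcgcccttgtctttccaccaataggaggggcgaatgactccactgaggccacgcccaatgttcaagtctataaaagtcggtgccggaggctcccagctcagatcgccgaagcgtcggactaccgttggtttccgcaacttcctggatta

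The ANKRD13B peak, chr17:29590602-29593314, covered all 300 bases of its window. Control anti-ETO calls covered 0 of those bases, whereas knockdown anti-ETO calls covered 300, control anti-Flag calls 300 and knockdown anti-Flag calls 266. The CUX1 peak, chr7:101813312-101815996, covered 240 bases, of which control anti-ETO and control anti-Flag calls each held 112, knockdown anti-ETO calls 240 and knockdown anti-Flag calls 0. At GADD45B the peak chr19:2474225-2475982 covered 106 bases, and the 4 lists covered 87 (control anti-ETO), 106 (knockdown anti-ETO), 44 (control anti-Flag) and 73 (knockdown anti-Flag). In all 3 windows the knockdown anti-ETO calls reached further towards the gene than the control anti-ETO calls. These 3 windows were chosen for their coverage, and no test was made on them.

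The windows were searched on both strands for a RUNX core (TGTGGT or TGCGGT), an ETS core (CCGGAA or AGGAAG), an E-box (CAGCTG or CAGGTG), an AP-1 site (TGACTCA or TGAGTCA) and a GATA site (AGATAA). None of these motifs contains another. Among all 35116 promoter windows of this length, 19.6% held the RUNX letters, 45.4% the ETS letters, 34.5% the E-box letters, 4.95% the AP-1 letters and 10.3% the GATA letters. The ANKRD13B window held 1 ETS match and 2 E-box matches, all within the peak. The GADD45B window held 1 RUNX and 1 ETS match, both outside the covered bases, and the CUX1 window held none of the 5 motifs. GC content was 70.0% in the ANKRD13B window, 75.3% in the CUX1 window and 61.7% in the GADD45B window, against a median of 58.7% over all windows.

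The distance from the centre to the nearest protein-coding gene had a median of 8.25 kb (quartiles 3.48 and 22.9 kb), and to a gene of any type 5.14 kb. A protein-coding gene was the nearest annotated gene for 528 peaks (57.3%), a long non-coding RNA gene for 225 (24.4%) and a pseudogene for 104 (11.3%). The gene's strand could be read from the promoter table for all but 239 peaks, and of the 921, 393 (42.7%) lay upstream of the start of the nearest protein-coding gene and 289 (31.4%) beyond its end. Only 3 peaks reached into a gene body. At the edge of the distance rule, the nearest peaks kept had centres 1001, 1007 and 1010 bp from a gene boundary and the nearest left out 993, 995 and 997 bp. At the edge of the width rule, the widest kept were 2894, 2912 and 2965 bp and the next outside it 3000, 3017 and 3082 bp.

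Chromosome 19 held the most of these peaks, 120 (13.0%), followed by chromosome 1 with 99 (10.7%) and chromosome 17 with 95 (10.3%). Of the shared peaks of all locations under the width limit, 11.6% were on chromosome 19, 10.4% on chromosome 1 and 8.81% on chromosome 17. Chromosome 18 held 2 of the peaks outside genes (0.217%), beside 1.02% of all shared peaks, and chromosome 5 held 15 (1.63%), beside 3.44%. These shares are descriptions, since location chose the peaks.

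Call width, the summed width of the calls of a list that overlap a peak, was the graded measure the lists offered, and the rule did not use it beyond the 3000-bp limit on the shared interval. All 921 peaks had a call in each of the 4 lists. Their median call width was 519 bp (95% interval 493 to 553) with control anti-ETO, 750 bp (706 to 789) with knockdown anti-ETO, 725 bp (670 to 766) with control anti-Flag and 585 bp (553 to 614) with knockdown anti-Flag. By median, the narrowest calls came from control anti-ETO and the widest from knockdown anti-ETO, so the order of the antibodies turned between the conditions. The smallest call in each full list was 176 bp (control anti-ETO), 174 bp (knockdown anti-ETO), 170 bp (control anti-Flag) and 165 bp (knockdown anti-Flag). Some calls named below lie close to these smallest widths, and their changes are read with that limit. Examples are calls at BPI, BCL11A, CCR2, ZNRF3, FOS, MDFI, LAT2, LTF, BAHCC1 and MIR1281.

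**Figure D1:**
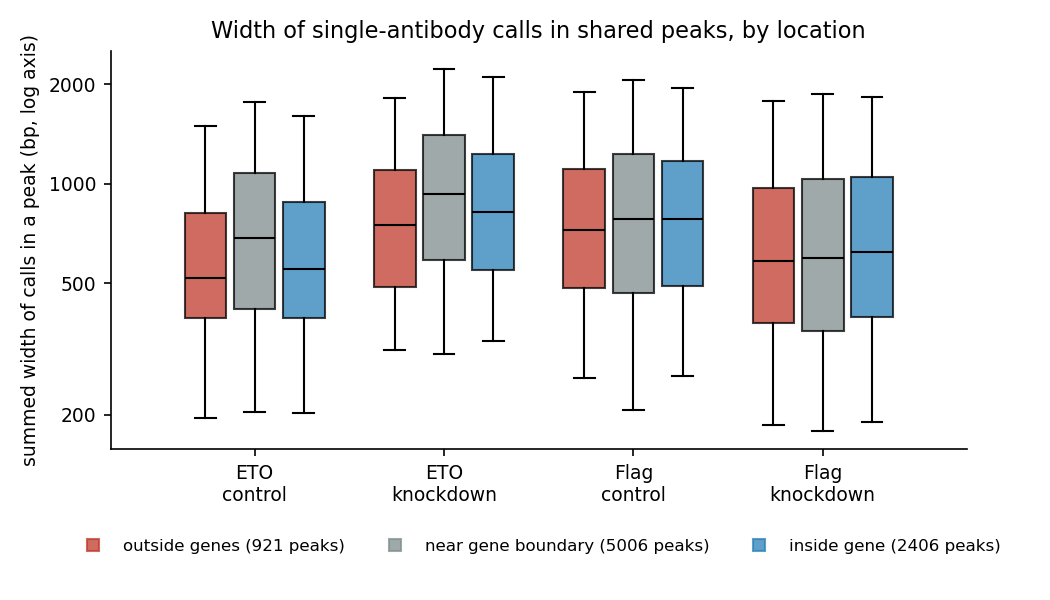
Call width in bp (log axis) in the 4 single-antibody lists, for shared peaks outside genes beside shared peaks near gene boundaries and elsewhere in genes; boxes are quartiles with the median as a line and whiskers run from the 5th to the 95th percentile. With control anti-ETO the median outside genes is 519 bp, against 686 bp near boundaries.

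Peaks outside genes had narrower anti-ETO calls than shared peaks whose centre lay within 1 kb of a gene boundary. With control anti-ETO, 39.2% of the 921 peaks exceeded the median width of all shared peaks under the limit, against 55.2% of the 5006 peaks near boundaries, a difference of -16.0 percentage points (95% interval -19.4 to -12.5, two-sided Fisher's exact test, exact adjusted p = 3.9e-18). With knockdown anti-ETO the difference was -14.2 points (-17.6 to -10.7, exact adjusted p = 9.4e-15). The anti-Flag differences from the boundary peaks were smaller, at -4.63 points in control (exact adjusted p = 0.0197) and -1.93 points in knockdown (-5.43 to 1.58, exact adjusted p = 0.282). Against the 2406 shared peaks elsewhere in genes, the differences ran from -3.90 points (control anti-ETO, exact adjusted p = 0.0473) to -6.09 points (knockdown anti-ETO, exact adjusted p = 0.00419). Other choices of the boundary distance, width limit or call width ended several of these small differences, whereas both anti-ETO differences from the boundary peaks and the knockdown anti-ETO difference from peaks in genes passed the threshold in all 8 alternatives that moved any value.

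After knockdown the anti-ETO call was wider at most peaks outside genes and the anti-Flag call narrower. The median ratio of knockdown to control width was 1.26 for anti-ETO (95% interval 1.20 to 1.30) and 0.881 for anti-Flag (0.855 to 0.907). With anti-ETO, 728 of 921 peaks (79.0%) were wider in knockdown, beside 80.7% of all 8333 shared peaks under the width limit, and 187 were narrower (background 18.3%). With anti-Flag, 282 (30.6%) were wider, beside 29.5% of all shared peaks, and 638 were narrower (background 70.2%). A change of at least 1.5-fold was seen as widening in 307 peaks for anti-ETO (33.3%, background 33.2%) and as narrowing in 258 peaks for anti-Flag (28.0%, background 28.2%). The opposite change of that size was seen in 17 peaks for anti-ETO (1.85%, background 1.87%) and in 73 for anti-Flag (7.93%, background 7.02%). These shares are close to the background, and nothing particular to peaks outside genes is read from them.

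**Figure D2:**
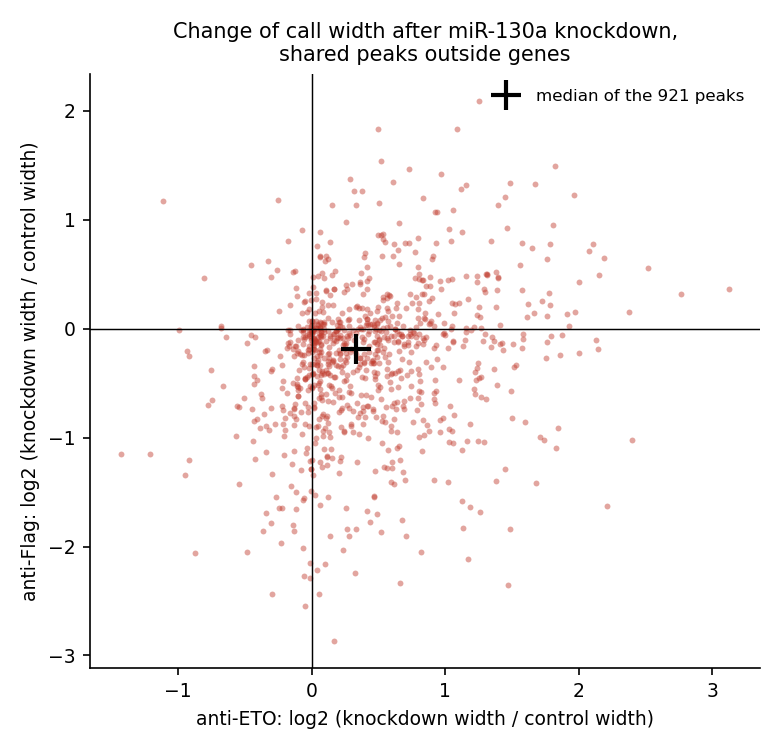
Log2 ratio of knockdown to control call width for anti-ETO (x axis) and anti-Flag (y axis), 1 point per shared peak outside genes and a black cross at the medians. Of the 921 points, 475 lie in the quadrant with a wider anti-ETO and a narrower anti-Flag call.

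The share wider with anti-ETO differed by -1.16 points from peaks near boundaries (-4.11 to 1.59, exact adjusted p = 0.420) and by -3.46 points from peaks elsewhere in genes (-6.57 to -0.501, exact adjusted p = 0.0981, two-sided Fisher's exact test). For anti-Flag the differences were 2.65 points (-0.501 to 5.94, exact adjusted p = 0.206) and -1.59 points (-5.05 to 1.97, exact adjusted p = 0.420). No difference passed the adjusted threshold of 0.05. The unadjusted interval for anti-ETO against peaks elsewhere in genes lay below 0, and that difference passed the threshold with a boundary distance of 2.5 kb (-5.00 points) or 5 kb (-6.01 points) and with protein-coding genes only (-3.80 points). The other 3 intervals included 0 and allow differences of a few points either way. The lists also differed in length, with 14264 control and 22594 knockdown anti-ETO calls and 23162 control and 25961 knockdown anti-Flag calls. With all 4 lists shortened to the shortest length by keeping their widest calls, peaks left without a call dropped out. The median log2 change of width was then 0.36 for anti-ETO over 831 peaks (0.33 with the full lists). For anti-Flag it was -0.12 over 694 peaks (-0.18 with the full lists). Control anti-ETO was already the shortest list, so for anti-ETO the cut removed narrow knockdown calls only. The part of list length in these changes therefore cannot be read from it.

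The widths of the 2 antibodies moved in opposite directions at 475 peaks (51.6%, background 53.6%), where anti-ETO was wider and anti-Flag narrower after knockdown. The labels do not say whether all protein bound by anti-ETO carried the Flag tag. Both were wider at 252 peaks (27.4%, background 26.8%) and both narrower at 159 (17.3%, background 15.7%). The reverse pattern, a narrower anti-ETO and a wider anti-Flag call, was seen at 28 (3.04%, background 2.58%). In control cells the Flag call was the wider of the pair at 735 peaks (79.8%, background 69.4%), and in knockdown at 257 (27.9%, background 18.9%). Shared peaks elsewhere in genes had similar shares, 77.7% in control and 25.5% in knockdown. Shared peaks near boundaries had lower shares in each condition. The excess over the background is therefore not read as particular to peaks outside genes. The order turned from Flag wider to ETO wider or equal at 515 peaks (55.9%, background 53.7%). Across the 921 peaks the log2 changes of the 2 antibodies had a Pearson correlation of 0.226 and a Spearman correlation of 0.237, as a description over peaks that share the same libraries. Whether antibody, depth or peak calling set these widths was not tested.

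The median distance between the centres of the control and knockdown calls was 67.0 bp for anti-ETO (95% interval 59.0 to 77.0) and 97.0 bp for anti-Flag (89.0 to 110). The anti-ETO and anti-Flag centres were a median of 77.5 bp apart in control and 88.0 bp apart in knockdown. For shared peaks near boundaries the anti-ETO shift between conditions was 89.0 bp (86.0 to 92.5), and elsewhere in genes 82.5 bp (77.0 to 87.5). The anti-Flag shift was 103 bp near boundaries and 102 bp elsewhere in genes. Between the antibodies, the centres in control were 79.5 bp apart near boundaries and 77.5 bp elsewhere in genes. In knockdown these distances were 114 and 99.8 bp. No test was made on these distances.

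Fewer peaks outside genes were split into separate calls than peaks near boundaries. With control anti-Flag, 94 (10.2%) held 2 or more calls, beside 17.4% of all shared peaks under the limit and 20.6% near boundaries, a difference of -10.4 points (95% interval -12.6 to -8.04, two-sided Fisher's exact test, exact adjusted p = 4.1e-14). With knockdown anti-Flag, 152 (16.5%) did, beside 23.5% of all and 26.6% near boundaries, a difference of -10.1 points (-12.7 to -7.30, exact adjusted p = 6.9e-11). With control anti-ETO, 50 (5.43%) were split, beside 7.85% of all, and the difference from boundary peaks was -3.12 points (exact adjusted p = 0.00261). Knockdown anti-ETO calls were split at 61 peaks (6.62%, background 7.96%), with a difference of -1.61 points (-3.24 to 0.329, exact adjusted p = 0.128). The differences from peaks elsewhere in genes were between -3.36 and -1.27 points. Those of anti-Flag passed the threshold (exact adjusted p = 0.0373 in control and 0.0472 in knockdown) but did not at other boundary distances.

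Location also went with how often a peak was found again in the other condition. This comparison used all peaks called by both antibodies in a condition, at every width, since the shared peaks were chosen for being found in both. In control cells, 981 of 1390 dual-antibody peaks outside genes (70.6%, 95% Wilson interval 68.1 to 72.9) overlapped a dual-antibody peak of the knockdown, beside 75.1% at all locations. That share was 5.74 points lower than near boundaries (difference -5.74, interval -8.37 to -3.20, two-sided Fisher's exact test, exact adjusted p = 1.4e-05). In knockdown, 1002 of 1968 peaks outside genes (50.9%, 48.7 to 53.1) overlapped a control peak, beside 66.5% at all locations. The difference from the 78.8% near boundaries was -27.9 points (-30.3 to -25.4, exact adjusted p = 3.9e-122), and it lay between -27.9 and -14.4 points in the 8 alternatives that moved any value. Against peaks elsewhere in genes the differences were -3.85 points for control (exact adjusted p = 0.00660) and -4.17 points for knockdown peaks (exact adjusted p = 0.00246), and with a boundary distance of 5 kb the second became 0.535 points (exact adjusted p = 0.812).

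**Figure D3:**
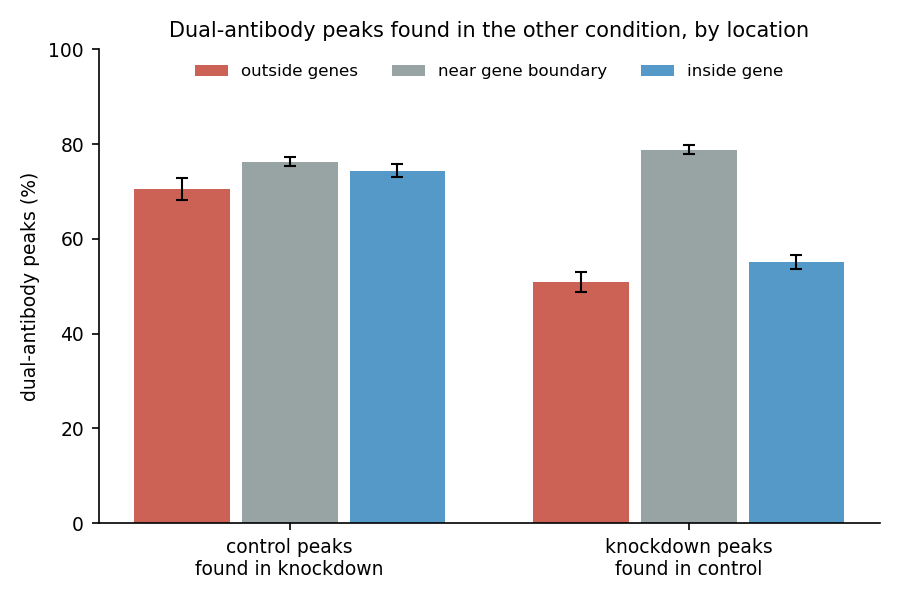
Share of dual-antibody peaks found in the other condition (%), by location, with 95% Wilson intervals. Outside genes it is 70.6% for control and 50.9% for knockdown peaks, and near boundaries 76.3% and 78.8%.

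Among the 409 control peaks outside genes that were not found again, 251 (61.4%) still had a knockdown anti-ETO call alone, 27 (6.60%) an anti-Flag call alone and 119 (29.1%) neither. Among the 966 knockdown peaks not found in control, 566 (58.6%) had a control anti-Flag call alone, 37 (3.83%) an anti-ETO call alone and 358 (37.1%) neither. The list most often missing was therefore knockdown anti-Flag for the first group and control anti-ETO for the second. Of the 4 lists, knockdown anti-Flag was the longest and control anti-ETO the shortest. Peaks that were not found again had smaller median widths, at 492 against 756 bp in control and 526 against 810 bp in knockdown. The part of width and list length in the lower shares was not tested. After cutting the knockdown lists by width to the lengths of the control lists, the differences from boundary peaks were -5.15 points for control and -24.2 points for knockdown peaks. That cut removed the narrowest knockdown calls and did not match peak widths between locations, so it cannot separate these parts.

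Peaks called in both conditions often had condition-specific neighbours. A knockdown-unique peak lay within 10 kb of 376 peaks outside genes (40.8%, background 35.7%), which was 8.92 points more often than near boundaries (5.53 to 12.4, two-sided Fisher's exact test, exact adjusted p = 8.7e-07) and -0.821 points from peaks elsewhere in genes (-4.53 to 2.93, exact adjusted p = 0.694). Within 5 kb the first difference was 3.73 points (exact adjusted p = 0.0727). A control-unique peak lay within 10 kb of 128 (13.9%, background 13.1%), 0.674 points from the boundary peaks (-1.62 to 3.23, exact adjusted p = 0.694). Another shared peak lay within 10 kb of 518 (56.2%, background 52.4%). Condition-specific peaks outside genes differed in how far they lay from genes, with a median distance to the nearest protein-coding gene of 14.4 kb for 411 control-unique and 6.46 kb for 962 knockdown-unique peaks narrower than the limit, and 8.25 kb for the shared ones.

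Within the 921 peaks, the width change varied with distance from genes. The anti-ETO call was wider after knockdown at 83.9% of the 329 peaks 1 to 5 kb from a protein-coding gene (95% Wilson interval 79.5 to 87.5), 79.3% of the 323 at 5 to 20 kb, 74.0% of the 231 at 20 to 100 kb and 65.8% of the 38 beyond 100 kb (49.9 to 78.8). The anti-Flag call was wider at 37.7% (32.6 to 43.0), 27.9%, 26.4% and 18.4% (9.22 to 33.4) of the same groups. Of these 4 groups both shares were highest at 1 to 5 kb and lowest beyond 100 kb, where the median log2 change of width was 0.11 for anti-ETO (-0.01 to 0.27) and -0.78 for anti-Flag (-1.11 to -0.20). Shared peaks within 1 kb of a boundary did not continue this order, with 80.2% wider for anti-ETO and 28.0% for anti-Flag. The groups were compared by their intervals only, and the intervals of neighbouring groups overlapped. Without the gene-dense chromosomes 11, 16, 17 and 19, the anti-ETO share was 79.4% at 1 to 5 kb (72.8 to 84.8, n = 175) and 71.4% over 20 kb (65.1 to 76.9, n = 220). The anti-Flag share was 35.4% (28.7 to 42.8) and 23.2% (18.1 to 29.2) in the same groups. For each antibody these intervals overlapped. Over all chromosomes they did not, at 79.5 to 87.5 and 67.3 to 77.8 for anti-ETO. For anti-Flag they were 32.6 to 43.0 and 20.5 to 30.8.

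**Figure D4:**
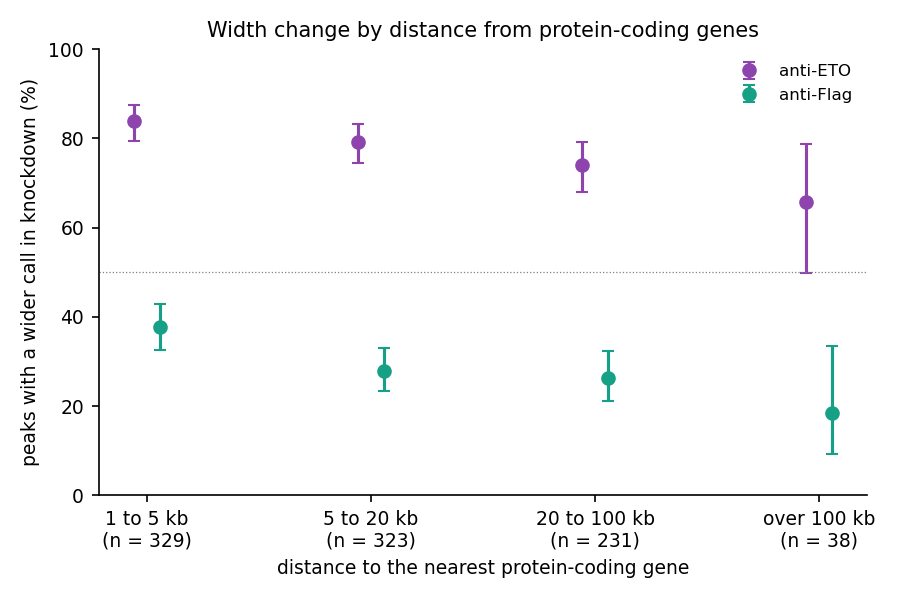
Share of shared peaks outside genes whose call was wider in knockdown (%), by distance of the peak centre to the nearest protein-coding gene, with 95% Wilson intervals. Anti-ETO runs from 83.9% at 1 to 5 kb to 65.8% beyond 100 kb, and anti-Flag from 37.7% to 18.4%.

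The peaks farthest from any gene were isolated single intervals. The most distant, chr17:24188188-24188703, lay 1483 kb from the nearest gene of any type, in the centromeric part of chromosome 17, where repeated sequence can share reads, so this peak is uncertain. Its calls were nearly the same in all lists, at 489 bp (control anti-ETO), 487 bp (knockdown anti-ETO), 508 bp (control anti-Flag) and 516 bp (knockdown anti-Flag). The next were chrX:46180184-46180851 at 107 kb, chr10:71105886-71106281 at 100 kb and chr15:58331244-58332769 at 87.4 kb from a gene. The peak on chromosome 15 had a control anti-Flag call of 1526 bp and a knockdown anti-Flag call of 483 bp, beside anti-ETO calls of 1193 and 1102 bp.

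The widest peaks were near the limit of the rule. The peak chr7:155349273-155352237 (2965 bp) lay 40.5 kb beyond the end of INSIG1, a regulator of cholesterol synthesis. The peak chr15:40939948-40942841 (2894 bp) lay 2.32 kb beyond DLL4, a ligand of Notch receptors, and its anti-ETO call was 529 (control) and 2447 bp (knockdown), while its anti-Flag call was 2276 and 738 bp. The other pair were chr17:81353005-81355916, 41.0 kb upstream of BAHCC1, and chr1:45542707-45545599, 6.67 kb upstream of AKR1A1. At the narrow end, chr20:31612731-31612915 (185 bp) lay 6.31 kb beyond ID1, an inhibitor of basic helix-loop-helix factors, and chr14:75258812-75259000 (189 bp) lay 19.9 kb upstream of FOS. Their calls were between 167 and 185 bp in every list, close to the smallest width each list holds.

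Some peaks moved the same way with both antibodies, and these were ranked by the smaller of the 2 log2 changes. By that rank the largest common widening was at chr19:13784568-13785698, 6.36 kb beyond C19orf53, where the anti-ETO call went from 271 bp in control to 959 bp in knockdown and the anti-Flag call from 298 to 841 bp. At chr22:28881940-28882784, 1.21 kb from ZNRF3, a membrane ligase that restrains Wnt receptors, the anti-ETO call went from 182 to 580 bp and the anti-Flag call from 313 to 784 bp. The others were chr19:3128179-3129670 beyond GNA11 and chr19:1502108-1503843 beyond ADAMTSL5, so 3 of these 4 were on chromosome 19. By the same rank the largest common narrowing was at chr20:63507901-63508752, 9.24 kb from EEF1A2, where the anti-ETO call went from 735 to 273 bp and the anti-Flag call from 838 to 377 bp. At chr6:41625472-41625959, 11.3 kb upstream of MDFI, the anti-ETO call went from 435 to 188 bp and the anti-Flag call from 420 to 189 bp. The next by rank were chr6:150861642-150862260, upstream of MTHFD1L, and chr2:176491083-176492058, 154 kb beyond MTX2. These peaks were ranked by their change, so they are shown as the extremes and carry no test.

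The nearest protein-coding gene was used to relate the peaks to gene groups, which says nothing about which gene a peak acts on. The 921 peaks had 724 such genes, of which 592 had 1 peak and 46 had 3 or more. Within 100 kb, 692 of 19974 protein-coding genes were the nearest gene of a peak, a background of 3.46%. Of 306 genes in 10 lists, 35 (11.4%) were. At the 43 peaks of those 35 genes, the anti-ETO call was wider after knockdown at 32 (74.4%, background 80.7%) and the anti-Flag call narrower at 28 (65.1%, background 70.2%). Gene size and spacing were not matched between the lists and the background.

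Among 15 genes of AML1-ETO and its core complex, 4 were nearest to a peak: RUNX1, RUNX3, CBFA2T3 and TCF3. The peak chr21:35050089-35052296 lay 1.89 kb upstream of RUNX1, the gene that gives the fusion its DNA-binding domain. Its calls were 1878 bp (control anti-ETO), 1392 bp (knockdown anti-ETO), 2207 bp (control anti-Flag) and 1743 bp (knockdown anti-Flag). Both antibodies thus gave narrower calls after knockdown there. RUNX3, a paralogue of RUNX1, had 3 peaks: chr1:24872327-24873488 beyond its end and a pair 68.9 and 72.2 kb upstream of its start. CBFA2T3, a paralogue of ETO, had peaks 27.1 and 55.0 kb upstream, at chr16:89003996-89004631 and chr16:89031344-89032983. TCF3, which encodes an E protein that binds ETO, had a peak 20.0 kb upstream at chr19:1671936-1673375, where the anti-ETO call was 538 (control) and 1004 bp (knockdown) and the anti-Flag call 756 and 1178 bp.

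Of 58 haematopoietic transcription factor genes, 10 were nearest to a peak. FOS, an immediate-early AP-1 subunit, had 4 peaks, 3 of them upstream of its start. The peak nearest to it, chr14:75276820-75277459, lay 1.69 kb upstream, with anti-ETO calls of 459 (control) and 543 bp (knockdown) and anti-Flag calls of 472 and 597 bp. The next, chr14:75274728-75275278, had anti-ETO calls of 533 and 420 bp and anti-Flag calls of 551 and 170 bp. The 2 upstream peaks thus differed in direction although their centres are close together. At CEBPA, the main driver of granulocyte differentiation, the peak chr19:33286831-33287439 lay 12.8 kb beyond the gene end, with anti-ETO calls of 421 and 609 bp and anti-Flag calls of 491 and 591 bp.

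GFI1, a repressor needed for neutrophil development, had the peak chr1:92459437-92460432 at 13.1 kb beyond its end, where the anti-ETO call was 345 (control) and 996 bp (knockdown) and the anti-Flag call 665 and 529 bp. At IRF8, a monocyte-lineage factor, the peak chr16:85927145-85928580 lay 5.25 kb beyond the gene, with anti-ETO calls of 900 and 1390 bp and anti-Flag calls of 925 and 696 bp. BCL11A, a repressor of fetal globin, had the peak chr2:60555265-60555882 at 1.65 kb upstream, with anti-ETO calls of 182 and 618 bp. NFE2, a megakaryocyte and erythroid factor, had the peak chr12:54303407-54304968 at 3.17 kb, with anti-ETO calls of 1100 and 1509 bp and anti-Flag calls of 1528 and 1247 bp. IRF1 had a broad peak 5.68 kb upstream with calls between 1376 and 1678 bp in all lists. The peaks at GFI1, IRF8 and NFE2 each had a wider anti-ETO and a narrower anti-Flag call after knockdown. That pattern was seen at 53.6% of all shared peaks under the width limit, so it is not read as a trait of these genes. At BCL11A the anti-Flag calls were 507 and 551 bp.

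Granule and effector genes of myeloid cells gave 5 of 20 genes. MPO, the myeloperoxidase of primary granules, had the peak chr17:58283655-58285870 at 3.83 kb, with anti-ETO calls of 1513 and 2023 bp and anti-Flag calls of 2145 and 2202 bp. LTF, the lactoferrin gene, had a peak 3.80 kb upstream with anti-ETO calls of 200 and 517 bp. BPI, a bactericidal granule protein, had a peak at 5.08 kb with anti-ETO calls of 177 and 424 bp and anti-Flag calls of 548 and 171 bp. NCF1, a subunit of the phagocyte oxidase that has near-identical pseudogene copies and is therefore uncertain, had a peak 4.86 kb upstream with calls between 361 and 452 bp. RNASE2, an eosinophil ribonuclease, had peaks 10.2 kb upstream and 14.9 kb beyond the gene, the second with anti-ETO calls of 1843 and 1348 bp.

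Signalling and adhesion genes gave 7 of 39: BTG2, DUSP6, LAT2, NFKBIA, NOTCH1, SMAD7 and SOCS1. DUSP6, a phosphatase that restrains ERK signalling, had the peak chr12:89345855-89346491 at 1.06 kb beyond its end, with anti-ETO calls of 616 and 456 bp and anti-Flag calls of 584 and 411 bp. NFKBIA, an inhibitor of NF-kappa-B, had the peak chr14:35406361-35407314 at 2.09 kb upstream, where anti-ETO went from 434 to 753 bp and anti-Flag from 690 to 1023 bp. LAT2, an adaptor of myeloid and B cell signalling, had the peak chr7:74206536-74206966 at 3.25 kb, with anti-ETO calls of 194 and 426 bp. DUSP6 and NFKBIA thus moved in opposite directions, each in the same direction with both antibodies.

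Surface and receptor genes gave 3 of 53 (CCR2, FCGR2A and ITGB2), and cell cycle and survival genes 3 of 22 (BCL2, CCNE1 and E2F1). At CCR2, a chemokine receptor, the peak chr3:46349609-46350156 had anti-Flag calls of 176 (control) and 513 bp (knockdown) and anti-ETO calls of 310 and 444 bp. At ITGB2, a leukocyte integrin subunit, the peak chr21:44880139-44882156 had calls between 1499 and 1664 bp in all lists. E2F1, a cell cycle factor, had a peak 3.66 kb upstream with anti-ETO calls of 419 and 806 bp. Chromatin genes gave 1 of 32, EP300, an acetyltransferase, and T and B lymphoid markers 1 of 23, CD7. Erythroid and megakaryocyte markers gave 1 of 19, TFRC, and the 25 markers of other tissues gave 0. The shares of chromatin, lymphoid and erythroid genes (3.12%, 4.35% and 5.26%) were near the background of 3.46%, and those of the core complex (26.7%) and granule genes (25%) were the highest of the 10 lists. The lists were chosen with earlier results of these data known and are described by counts only.

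Genes with many peaks were not mainly those of the lists. After CCDC200, which lies beside the repeat array described below, PTMA and BAHCC1 had 5 peaks each and FAM78A, FOS and RPN1 had 4 each, the first of several genes with 4. All 5 PTMA peaks were upstream of the gene, from 1.88 to 42.1 kb, and anti-ETO was wider after knockdown at 4. All 5 BAHCC1 peaks had a wider anti-ETO call, among them chr17:81359706-81361451, with 198 (control) and 865 bp (knockdown). Of all shared peaks under the width limit, 80.7% were wider with anti-ETO, so nothing particular to PTMA or BAHCC1 is read from these counts. The 4 RPN1 peaks lay on both sides of the gene and hardly moved with anti-ETO, with log2 changes between -0.06 and 0.16. The largest of them, chr3:128603062-128605115, had calls of 1501 bp (control anti-ETO), 1680 bp (knockdown anti-ETO), 1650 bp (control anti-Flag) and 1916 bp (knockdown anti-Flag). As background, the stretch beside RPN1 is known in myeloid leukaemia for a distal enhancer of GATA2, and whether these peaks coincide with it was not tested.

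Many of the peaks lay in groups. Joined when no more than 50 kb apart, they formed 660 runs, of which 503 held a single peak and 58 held 3 or more, and 418 peaks (45.4%) were in runs of 2 or more. In the run of 7 at chr8:141005012-141120457, between PTK2, which encodes focal adhesion kinase, and DENND3, the anti-ETO call was wider after knockdown at all 7 peaks (median log2 change 0.65) and the anti-Flag call narrower at 5. The run of 7 at chr16:29641519-29729641 lay around SPN, which encodes the leukocyte sialoglycoprotein CD43, and QPRT. There the anti-ETO call was also wider at 7 of 7 (median log2 change 0.38) and the anti-Flag call narrower at 5. The run of 6 at chr10:72257016-72324420, around the stress gene DDIT4 and DNAJB12, had a wider anti-ETO call at 3 of 6 (median log2 change 0.04). Peaks of a run are neighbours and share local copy number, so they are not independent. Any difference of 1 bp or more was counted as wider or narrower, as over all shared peaks, where 80.7% were wider with anti-ETO and 70.2% narrower with anti-Flag.

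The longest run, 9 peaks over 102 kb at chr17:43232272-43334738, lay in an array of genes for U2 small nuclear RNA, a component of the spliceosome. The annotation places RNU2-1 and other snRNA genes of 188 to 192 bp there, 14 in all within 50 kb of the run, with a median spacing of 6.13 kb. The centres of 7 of the 9 peaks were 1.09 to 1.34 kb from such a gene. Copies of this array are nearly identical, so a read can fit several places, and these 9 peaks are uncertain as separate sites. Their calls were narrow, from 192 to 757 bp over the 4 lists, and the anti-ETO call was wider after knockdown at 7 and the anti-Flag call narrower at 8.

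**Figure D5:**
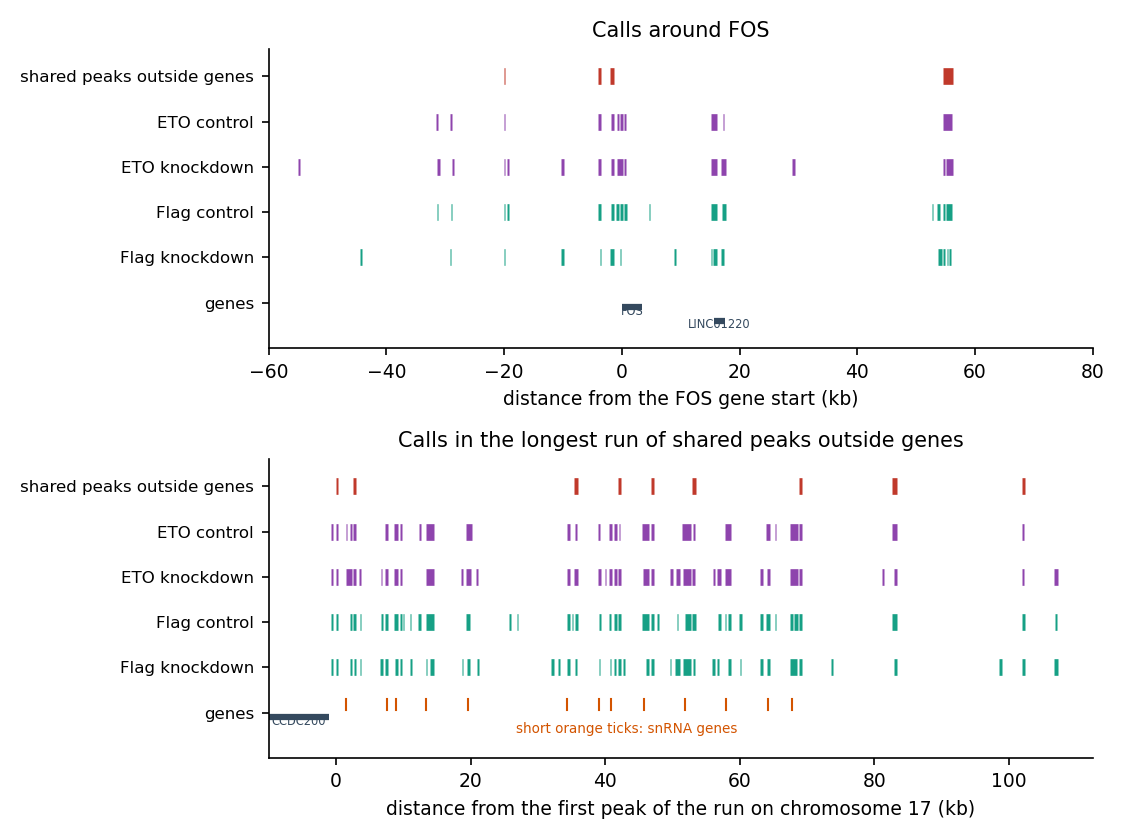
Calls of the 4 single-antibody lists and shared peaks outside genes around FOS (top, distance in kb from the gene start) and in the longest run on chromosome 17 (bottom, distance in kb from its first peak), each bar drawn at its true width. The top map holds 4 of the peaks outside genes and the bottom map 9, with the snRNA genes as orange ticks.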

How the data were processed

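CUT&RUN peaks of Kasumi-1 cells were analysed from 9 interval lists deposited by the authors. Each list gives chromosome, start and end with no header and no score, and its values are positions in bp: 4 lists hold single-antibody calls, and 5 derived lists hold dual-antibody, shared and condition-unique peaks. The submitters' processing notes name fastp 0.19.5, Bowtie2 2.3.5, MACS2 2.2.5 and HOMER 4.8 and the builds hg38 and sacCer3. The calling threshold, the use of IgG and the handling of replicates are not given in the sources used here, and any of them can change call width, splitting and list length. Depth per library cannot be read from these lists. No column of per-sample values was left unused.

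Groups came from the sample titles. Positions are printed with starts counted from 1. Gene positions came from the RefSeq table of GRCh38.p14, and strand and sequence from its promoter table, in which 3088 pairs of overlapping windows on opposite strands carried matching letters and 0 did not. Peaks were classed by centre as outside genes, near a boundary (within 1 kb) or elsewhere in a gene. Overlap meant at least 1 bp. Call width in a peak was the summed width of overlapping calls. Shares were compared by two-sided Fisher's exact tests with Benjamini-Hochberg adjustment within each family (threshold 0.05), with 95% Wilson intervals for shares, Newcombe intervals for differences and order-statistic intervals for medians. Work was done in Python 3.11.15 with scipy 1.17.1, statsmodels 0.14.6, pandas 2.3.3, numpy 2.4.6 and matplotlib 3.10.9, and the functions were tested on simulated intervals with known answers.

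Named peaks were the 4 farthest from genes, the 4 widest and 2 narrowest, the 4 with the largest common widening and the 4 with the largest common narrowing, those nearest to list genes within 100 kb (25 genes by distance; the positions of the RUNX3 and CBFA2T3 peaks were added after their values were seen), those of the 6 genes with most peaks and those of the 4 longest runs. The promoter windows were chosen by covered bases. The peaks, lists and named genes were chosen with earlier results of these data known. The planned comparison of sequence and motifs in the peaks was not run, since no genome sequence was used here. Alternatives changed the boundary distance, the annotation, the width limit, the overlap, the call-width measure and the list lengths.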

Additional observations from a re-analysis of the deposited data

How the results depend on the processing

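No paired analysis was possible because the lists name no library, and for the same reason none was left out. Restricting the lists to chromosomes 1 to 22 and X left all 28 values as they were and is not counted. Of the other 257 values recomputed under alternatives, 202 kept their direction and side of the threshold or their size, 30 lost and 8 gained the threshold, 10 moved and 7 changed sign. The list-length alternative with all 4 lists at the shortest length and those without chromosomes 11, 16, 17 and 19 were chosen after seeing the data. The differences of anti-ETO width, anti-Flag splitting and recall between peaks outside genes and near boundaries kept their direction and the threshold in all alternatives run for them, whereas comparisons with peaks elsewhere in genes often did not. Where the cause of a change is not given by fewer or other peaks, it was not tested. Differences below are in percentage points, adjusted p from Fisher's exact tests.

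With a boundary distance of 5 kb there were 474 peaks, and with protein-coding genes only 1589. At 5 kb the anti-ETO call was wider in 75.7% and the anti-Flag call in 25.7%, with a median anti-Flag log2 change of -0.26. Among the wider 50% of each list, the median log2 changes were 0.24 (anti-ETO) and -0.12 (anti-Flag), with 33.9% wider for anti-Flag. With all lists at the shortest length the anti-Flag median was -0.12. Without chromosomes 11, 16, 17 and 19 the anti-ETO share at 1 to 5 kb was 79.4%.

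The share wider with anti-ETO, against peaks elsewhere in genes, differed by -5.00 at 2.5 kb, -6.01 at 5 kb and -3.80 with protein-coding genes only, all past the threshold, and by -5.18 from boundary peaks at 5 kb.

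The same share differed from boundary peaks by 0.393 with the widest call, and the anti-Flag share by -3.84 at 5 kb; both changed sign, and neither was past the threshold in either setting.

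For call width, the control anti-ETO difference from peaks in genes missed the threshold at 2.5 kb (-2.41), at 5 kb (-2.08), with no width limit (-3.04), at 2000 bp (-2.40) and with the widest call in place of the sum (-2.85). Control anti-Flag missed it against boundary peaks at 2.5 kb (-3.74), 5 kb (-3.45), 2000 bp (-2.11) and the widest call (-1.49), and against peaks in genes at the same settings (-4.62, -5.48, -3.79 and -3.84). Knockdown anti-Flag passed it against boundary peaks at 5 kb (-6.81), changed sign without passing it at 2000 bp (2.47) and with the widest call (1.97), and missed it against peaks in genes at 2000 bp (-2.93) and with the widest call (-2.38).

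For split calls against peaks in genes, control anti-ETO passed the threshold at 2.5 kb (-2.38) and with an overlap of at least 100 bp (-2.06). Control anti-Flag missed it at 2.5 kb (-1.89), 5 kb (-1.31), with protein-coding genes only (-0.871), with no width limit (-2.86) and at 2000 bp (-1.96). Knockdown anti-Flag missed it at 2.5 kb (-3.57), 5 kb (-3.73), with protein-coding genes only (-1.66) and at 2000 bp (-3.00).

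For recall against peaks in genes, control peaks missed the threshold at 2.5 kb (-3.19), 5 kb (-2.51) and among the wider 50% (-3.38). Knockdown peaks missed it at 2.5 kb (-2.03) and with protein-coding genes only (-1.73), and the difference reversed at 5 kb (0.535, exact adjusted p = 0.812). For neighbours near boundary peaks, the knockdown-unique difference was 3.73 within 5 kb and no longer past the threshold, and the control-unique difference was 4.33 within 25 kb and past it. Without passing it, the control-unique difference from boundary peaks changed sign within 5 kb (-0.428) and the knockdown-unique difference from peaks in genes within 25 kb (0.184). The lists give no depth, so how sensitive a call was, and whether a missing call means less binding, cannot be read from them.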

Other observations

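Several peaks lay nearest to small RNA genes. The nearest annotated gene was a microRNA gene for 9 peaks, a tRNA gene for 7 and a snoRNA gene for 7. MIR193A had the peak chr17:31558300-31559377 at 1.16 kb, with anti-ETO calls of 481 (control) and 748 bp (knockdown) and anti-Flag calls of 756 and 785 bp. MIR1281 had the peak chr22:41090905-41091441 at 1.34 kb, with anti-ETO calls of 245 and 463 bp and anti-Flag calls of 505 and 193 bp. It is the same peak that was counted for EP300 above. The nearest of the 921 peaks lay 4307 kb from the miR-130a gene itself. Shared peaks centred in a gene or within 1 kb of its start or end were left out by the rule, so this distance does not cover them.

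Among tRNA genes, TRL-AAG2-1 had the peak chr5:181183840-181184602 at 3.48 kb, with anti-ETO calls of 214 (control) and 761 bp (knockdown) and anti-Flag calls of 737 and 346 bp. TRL-CAG1-5 had the peak chr1:161472493-161473840 at 1.96 kb, with anti-ETO calls of 409 and 1171 bp. It is the same peak that was counted for FCGR2A above. tRNA and snRNA genes exist in near-identical copies, so the peaks beside them are uncertain as single sites. The snoRNA gene LOC124902353 was nearest to 3 peaks on chromosome 9, and the anti-ETO call was wider after knockdown at each, from 482 to 1319 bp, from 437 to 1056 bp and from 748 to 1334 bp. These 3 peaks are neighbours and not independent, and 80.7% of all shared peaks under the width limit were wider with anti-ETO. The small RNA genes were chosen by type, and the examples after their values were seen.

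HES1, a transcriptional target of Notch signalling, and HLA-E, a non-classical class I molecule, each had 3 peaks, from 1.68 to 3.51 kb and from 2.28 to 7.18 kb away. XBP1, a factor of the unfolded protein response, and DLK1, a non-canonical Notch ligand, each had 4, and the anti-ETO call was wider after knockdown at all 4 of each, beside 80.7% of all shared peaks under the width limit. These 4 genes were picked from the counts per gene after the counts were seen.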
